A study of Mus musculus with 9 samples.

Results

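Described here are 10 genes of the ATF4 and CHOP branch of the integrated stress response (ISR) in mouse liver after acetaminophen (APAP) overdose: Atf4, Atf5, Ddit3, Trib3, Ppp1r15a, Chac1, Sesn2, Ddit4, Asns and Psat1. Their entries were found by gene name. The deposited FPKM table (fragments scaled to gene length and to a size factor of each library) holds 54532 entries, of which 24849 were above 0 in at least 1 library, and 11 entries carried 1 of these 10 names. The 11th was a second Ddit3 entry of 105 bases (ENSMUSG00000116429) at 0 in all libraries, which was left out. All 10 genes averaged 1 FPKM or more and were among the 9699 genes tested.

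RNA was sequenced from 9 livers of male C57BL/6 mice aged 5 to 7 weeks, 3 in each of the NC, APAP and AMSC groups. The NC mice were controls; the methods say that all animals were fasted overnight before APAP, and NC mice are not mentioned separately. APAP mice were fasted overnight, received 500 mg/kg APAP intraperitoneally and were killed 6 h later. Mice of the AMSC group had the same fast, dose and time and also received 200000 adipose-derived mesenchymal stem cells (AMSCs), grown from inguinal fat of C57BL/6 mice, by the tail vein directly after APAP. By their labels the AMSC libraries are replicates 2, 3 and 4, whereas NC and APAP have replicates 1, 2 and 3. NC replicate 3 has that number from its description, while its title has the number 1 and another date than the other 8 libraries.

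In the ISR, kinases that sense protein misfolding in the endoplasmic reticulum (ER), amino acid shortage, heme shortage or double-stranded RNA phosphorylate the translation factor eIF2. General protein synthesis then falls, while translation of a few mRNAs, Atf4 among them, rises. ATF4 and partner transcription factors switch on genes of amino acid supply, of feedback on the pathway and, through CHOP (the protein of Ddit3), of cell death. Since ATF4 and ATF5 are controlled in large part at translation, mRNA levels do not measure the proteins.

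The libraries had 13418921 to 16210930 reads on genes, and 1 read on a gene of 1 kilobase was worth 0.0578 to 0.0807 FPKM. The most abundant hepatocyte marker, Alb, lay between 27230 and 46612 FPKM in every library, so all 9 libraries carried liver RNA as labelled. Each comparison was made with limma on log2(FPKM + 1), and a gene was called where its adjusted p did not exceed 0.05 and its log2 fold change reached 1 in size. APAP against NC and AMSC against NC share the NC libraries, and AMSC against APAP shares libraries with both, so the values of the 3 comparisons are given side by side and not compared with each other.

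In NC liver the transcription factor genes Atf5 and Atf4 were the most abundant of the 10, with mean levels of 67.8 and 40.0 FPKM, and their ranges met neither each other nor those of the remaining genes. Ddit4 and Ddit3 followed, with overlapping ranges, then Ppp1r15a and Trib3, then Sesn2 and Asns. Chac1 (0.347 FPKM) and Psat1 (0.0232 FPKM) were the lowest and did not overlap with any neighbour. In APAP liver the order was Atf5, Atf4, Ddit3, Ppp1r15a, Chac1, Sesn2, Trib3 and Ddit4, each overlapping with the next, and below them Psat1 and Asns. In AMSC liver Atf5 (154 FPKM) stood above all others, Ddit3, Atf4, Chac1 and Ddit4 came next with neighbours that overlapped, then Trib3, Ppp1r15a and Sesn2, and last Asns (6.17 FPKM) and Psat1 (5.68 FPKM). Chac1 was thus ranked 9 of 10 by level in NC liver, 5 in APAP liver and 4 in AMSC liver.

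**Figure D1:**
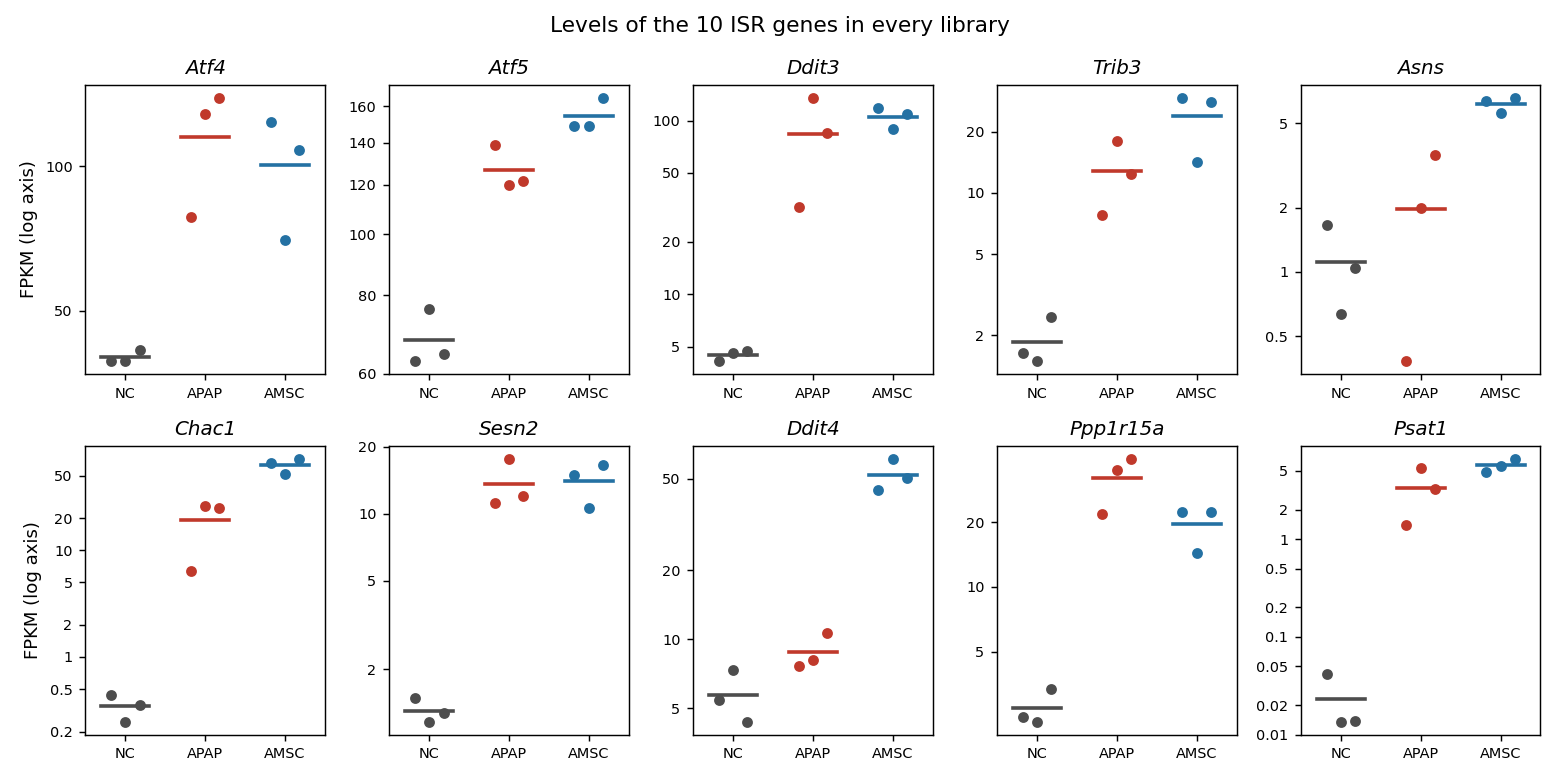
Level of each of the 10 ISR genes in every library, in FPKM on a log axis that differs between panels, with 3 points per group (NC, APAP, AMSC, in order of replicate number) and a bar at the group mean. The APAP libraries lay above the NC libraries for every gene except Asns, and for Ddit4 the 3 AMSC libraries (44.6 to 61.1 FPKM) lay far above the 3 APAP libraries (7.60 to 10.6 FPKM).

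Among the transcription factors, Atf4 (ENSMUSG00000042406, chromosome 15, 80255184 to 80257541 on GRCm38, plus strand) encodes the factor at the centre of the response. It measured 39.3, 39.3 and 41.4 FPKM in NC replicates 1, 2 and 3, 78.4, 128 and 139 FPKM in APAP replicates 1, 2 and 3, and 123, 70.2 and 108 FPKM in AMSC replicates 2, 3 and 4. All 6 libraries of dosed mice lay above the NC libraries, and the APAP and AMSC groups overlapped. Atf4 rose by a log2 fold change of 1.46 in APAP against NC (95% confidence interval 0.97 to 1.95, adjusted p = 0.00307) and of 1.27 in AMSC against NC (0.82 to 1.72, adjusted p = 0.00269). Bulk liver RNA cannot tell fewer cells of a type from less RNA per cell, here or for any value that follows. Between AMSC and APAP the log2 fold change was −0.19 (−0.83 to 0.45, adjusted p = 0.754), and 0.05 without AMSC replicate 3, the lowest of its group.

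Atf5 (ENSMUSG00000038539, chromosome 7, 44812256 to 44816658, minus strand) encodes a factor that is translated in the same way as ATF4. Its level was 62.9, 76.0 and 64.6 FPKM in the NC libraries, 139, 119.8 and 122 FPKM in the APAP libraries and 149, 149 and 165 FPKM in the AMSC libraries. The 3 groups did not overlap, with NC the lowest and AMSC the highest. The log2 fold change was 0.89 in APAP against NC (0.59 to 1.2, adjusted p = 0.00326), which passed the test but fell short of the minimum fold change, and Atf5 rose by 1.18 in AMSC against NC (0.91 to 1.44, adjusted p = 3.32e-04). AMSC against APAP gave 0.28 (−0.01 to 0.57, adjusted p = 0.253), which did not pass.

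Ddit3 (ENSMUSG00000025408, chromosome 10, 127290774 to 127296288, plus strand) encodes CHOP, a factor tied to cell death under lasting stress. NC libraries held 4.13, 4.59 and 4.68 FPKM, APAP libraries 31.8, 135 and 84.4 FPKM, and AMSC libraries 118, 89.5 and 109 FPKM. APAP replicate 1 was the lowest of the dosed libraries and still well above NC, and the APAP group was spread far more widely (83.7 ± 51.5 FPKM, SD, n = 3) than the AMSC group (105 ± 14.5 FPKM, SD, n = 3), which lay within its range. Ddit3 rose by 3.73 in APAP against NC (2.69 to 4.77, adjusted p = 0.00142) and by 4.27 in AMSC against NC (3.99 to 4.56, adjusted p = 8.35e-07). The value of 0.54 in AMSC against APAP (−0.51 to 1.60, adjusted p = 0.556) did not pass, and it was −0.03 without APAP replicate 1. Ddit3, counted over a length of 1713 bases, overlaps by 68 bases with Mars, the methionyl-tRNA synthetase gene on the other strand, and since strand use in counting is not stated, reads of the pair cannot be told apart where they overlap. Mars held 14.9 to 18.5 FPKM in NC, 14.0 to 20.5 FPKM in APAP and 20.9 to 23.3 FPKM in AMSC libraries.

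Of the genes that feed back on the pathway, Trib3 (ENSMUSG00000032715, chromosome 2, 152337422 to 152344032, minus strand) encodes a pseudokinase that binds ATF4 and CHOP. The NC libraries had 1.64, 1.497 and 2.46 FPKM of Trib3, the APAP libraries 7.82, 18.1 and 12.3 FPKM and the AMSC libraries 29.2, 14.2 and 27.8 FPKM. Both dosed groups were above NC, and AMSC replicate 3 fell between the APAP libraries. Trib3 rose by 2.21 in APAP against NC (1.57 to 2.84, adjusted p = 0.00163) and by 3.06 in AMSC against NC (2.45 to 3.67, adjusted p = 1.77e-04). AMSC against APAP gave 0.85 (0.06 to 1.65, adjusted p = 0.212), not past the test.

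Ppp1r15a (ENSMUSG00000040435, chromosome 7, 45522916 to 45526268, minus strand) encodes GADD34, the phosphatase subunit that removes the phosphate from eIF2. Levels were 2.49, 2.36 and 3.36 FPKM in NC, 21.8, 35.0 and 39.3 FPKM in APAP, and 22.3, 14.4 and 22.4 FPKM in AMSC libraries. Here 2 of the 3 APAP libraries were above all AMSC libraries, and APAP replicate 1 lay among them. Ppp1r15a rose by 3.11 in APAP against NC (2.59 to 3.63, adjusted p = 1.58e-04) and by 2.45 in AMSC against NC (2.02 to 2.88, adjusted p = 9.28e-05). AMSC against APAP was −0.66 (−1.25 to −0.07, adjusted p = 0.196).

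Chac1 (ENSMUSG00000027313, chromosome 2, 119351229 to 119354381, plus strand) encodes an enzyme that breaks down glutathione, and was among the lowest of the 10 in untreated liver. It was at 0.439, 0.247 and 0.355 FPKM in the NC libraries, 6.38, 26.0 and 24.8 FPKM in the APAP libraries and 65.7, 51.8 and 71.8 FPKM in the AMSC libraries. The groups were fully apart, in the order NC, APAP, AMSC, and the mean of the AMSC group was 3.31 times that of the APAP group. Chac1 rose by 3.68 in APAP against NC (2.62 to 4.74, adjusted p = 0.00163) and by 5.56 in AMSC against NC (5.24 to 5.88, adjusted p = 3.55e-07). These log2 values understate the change, since the NC libraries held only 12, 7 and 10 reads of Chac1 and 1 FPKM was added to every value. With 0.1 FPKM added they were 5.20 and 7.15, with voom on recovered reads 5.49 and 7.46, and without APAP replicate 1 the first was 4.29.

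The difference between AMSC and APAP for Chac1, 1.88 (0.81 to 2.96, adjusted p = 0.0725), was not past the threshold although the groups did not overlap. Among the settings under which it passed were the fits without APAP replicate 1 (1.27, adjusted p = 0.0112), with all 9 libraries in a single fit (1.88, adjusted p = 0.0268) and with voom (1.97, adjusted p = 0.0411). Over all alternatives the adjusted p of Chac1 in this comparison ran from 0.0111 to 0.270. APAP replicate 1, at 6.38 FPKM, was the library that widened the spread of its group.

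Sesn2 (ENSMUSG00000028893, chromosome 4, 132492032 to 132510501, minus strand) encodes sestrin 2, which restrains mTORC1 when leucine is short and is also known as a target of p53. Its values were 1.48, 1.16 and 1.27 FPKM in NC, 11.2, 17.7 and 12.1 FPKM in APAP and 14.9, 10.6 and 16.5 FPKM in AMSC libraries. The dosed groups lay on the same range, far above NC. Sesn2 rose by 2.64 in APAP against NC (2.23 to 3.05, adjusted p = 1.22e-04) and by 2.68 in AMSC against NC (2.31 to 3.06, adjusted p = 2.96e-05). With 0.1 FPKM added these were 3.26 and 3.31, and with voom 3.35 and 3.40. For AMSC against APAP the value was 0.04 (−0.46 to 0.54, adjusted p = 0.939), and its sign turned under 5 alternatives, to between −0.01 and −0.20.

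Ddit4 (ENSMUSG00000020108, chromosome 10, 59949669 to 59951834, minus strand) encodes REDD1, another brake on mTORC1. NC libraries had 5.43, 7.35 and 4.37 FPKM, APAP libraries 7.60, 8.14 and 10.6 FPKM, and AMSC libraries 44.6, 61.1 and 50.2 FPKM. The APAP libraries lay just above the NC libraries without overlap, and every AMSC library was more than 4 times the highest APAP library. Ddit4 rose by 2.43 in AMSC against APAP (2.04 to 2.83, adjusted p = 0.00115) and by 2.99 in AMSC against NC (2.57 to 3.41, adjusted p = 2.97e-05), while APAP against NC gave 0.56 (0.11 to 1.0, adjusted p = 0.0703) and was not called. The rise in AMSC against APAP passed with each replicate left out in turn and under every other alternative, between 2.31 and 2.57 with adjusted p from 1.76e-05 to 0.0257.

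For amino acid synthesis, Asns (ENSMUSG00000029752, chromosome 6, 7675169 to 7693254, minus strand) encodes asparagine synthetase. It was low in NC (1.67, 0.634 and 1.04 FPKM) and scattered in APAP (0.382, 2.01 and 3.54 FPKM), where APAP replicate 1 with 14 reads was the lowest of all 9 libraries. The AMSC libraries, at 6.35, 5.60 and 6.57 FPKM, lay above all others. Asns rose by 1.79 in AMSC against NC (1.38 to 2.20, adjusted p = 3.58e-04), or by 2.46 with 0.1 FPKM added and 2.57 with voom. APAP against NC gave 0.36 (−0.58 to 1.30, adjusted p = 0.552), and −0.02 without APAP replicate 3. AMSC against APAP gave 1.43 (0.55 to 2.31, adjusted p = 0.0863), not called, and the same difference had an adjusted p of 0.0452 with all 9 libraries in a single fit, over a range of 0.0452 to 0.293 under the alternatives.

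Psat1 (ENSMUSG00000024640, chromosome 19, 15904678 to 15947337, minus strand) encodes phosphoserine aminotransferase of the serine pathway. Hardly any was found in NC liver, with 0.0423, 0.0136 and 0.0137 FPKM from 3, 1 and 1 reads. The APAP libraries had 1.40, 5.29 and 3.29 FPKM and the AMSC libraries 4.84, 5.59 and 6.62 FPKM, so that the dosed groups overlapped only through APAP replicate 2. Psat1 rose by 1.97 in APAP against NC (1.25 to 2.70, adjusted p = 0.00413) and by 2.70 in AMSC against NC (2.41 to 2.99, adjusted p = 6.80e-06). These values depend on what is added before the logarithm, being 4.62 and 5.55 with 0.1 FPKM and 6.72 and 7.69 with voom. Between AMSC and APAP it differed by 0.73 (−0.01 to 1.46, adjusted p = 0.247).

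**Figure D2:**
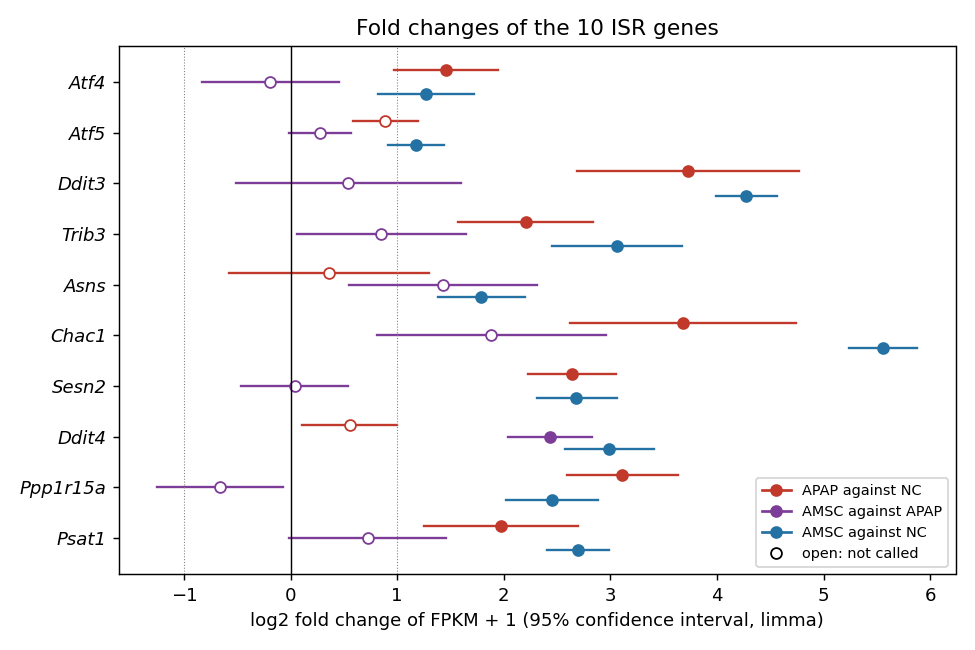
Log2 fold change of FPKM + 1 of each of the 10 ISR genes in APAP against NC, AMSC against APAP and AMSC against NC, with the 95% confidence interval of limma from 3 libraries per group; filled points were called, open points were not, and dotted lines mark a log2 fold change of 1 in either direction. Only Ddit4 (2.43) has a filled point in AMSC against APAP.

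Taking the 10 genes by comparison, 7 of 10 were called higher in APAP against NC and 0 lower, where 5.09% of the 9699 genes tested were called higher and 2.80% lower. At an unadjusted p under 0.05 with limma and with voom 0 were lower as well. Counting any gene that was higher with an adjusted p up to 0.05, there were 8 of the 10, against 12.8% of all genes tested. The NC and APAP libraries did not overlap for 9 of the 10, Asns being the exception, against 43.2% of all genes tested. The median log2 fold change of the 10 was 2.09, beside 0.00 over all genes tested. Chac1 and Psat1, with an NC mean under 1 FPKM, passed the filter on low values only through the dosed groups. At least 1 dosed group therefore had to be higher than NC, though not APAP in particular. These counts are thus a description and no support for a direction.

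In AMSC against APAP 1 of the 10, Ddit4, was called higher and 0 lower, with 0.742% of all genes tested called higher and 1.22% lower. Without a minimum fold change it was again Ddit4 alone, beside 1.64% of all genes that were higher with an adjusted p up to 0.05. For the count of 0 lower with limma, 1 gene (Ppp1r15a) was lower at an unadjusted p under 0.05 and 0 were lower with voom, which called 2 higher. The groups did not overlap for Atf5, Asns, Chac1 and Ddit4, all higher in AMSC, which is 4 of 10 against 27.0% of all genes tested. The median was 0.64, beside 0.01 over all genes. Without APAP replicate 1 the count was 2, Chac1 being the addition (1.27, adjusted p = 0.0112).

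In AMSC against NC all 10 genes were called higher, where 3.92% of the genes tested were called higher and 2.09% lower. All 10 were also higher with an adjusted p up to 0.05, against 14.1% of all genes tested, and had groups that did not overlap, against 43.5%. Their median was 2.69, beside 0.02 over all genes. Chac1 and Psat1 entered this comparison, too, only through the dosed groups, so these counts are likewise a description. Without NC replicate 3, the library with another label date, the counts of called genes were again 7 in APAP against NC and 10 in AMSC against NC.

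APAP replicate 1 was the lowest of its group in 9 of the 10 and the highest in Atf5, AMSC replicate 3 was the lowest of its group in 8, and NC replicate 2 in 7. When each gene's log2 level was standardized over the 9 libraries and averaged over the 10, the mean was −1.16, −1.18 and −1.16 in the NC libraries, −0.09, 0.54 and 0.51 in the APAP libraries, and 0.91, 0.66 and 0.97 in the AMSC libraries. The APAP libraries thus lay between the other groups on this scale, with replicate 1 the nearest to NC. Each gene's Pearson r with this mean, which includes the gene itself, was 0.996 for Chac1, 0.987 for Trib3 and Psat1, 0.986 for Ddit3, 0.961 for Sesn2, 0.942 for Atf5, 0.909 for Atf4 and 0.896 for Ppp1r15a (n = 9 libraries). Ddit4 (0.790) and Asns (0.787) were the least alike, and both were low in the APAP libraries beside the AMSC libraries.

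Outside the 10, the genes tested whose levels were most like this mean over the 9 libraries were Kcmf1 (r = 0.995), Cebpd (0.993), Gm12833 (0.990), Fosb (0.989) and Nfkbiz (0.987). Gm12833, Fosb and Nfkbiz lay under 1 FPKM in every NC library and passed the filter on low values only through the dosed groups. These r values describe 9 libraries in 3 groups, and any gene that is higher in both dosed groups shares the gap to NC. Kcmf1, a ubiquitin ligase gene, ran from 9.33 to 9.75 FPKM in NC, 12.9 to 14.5 FPKM in APAP and 15.1 to 15.9 FPKM in AMSC libraries.

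Among the genes that control the pathway (14 genes for the 4 eIF2 kinases, eIF2, its exchange factor eIF2B, the phosphatase subunit Ppp1r15b and the protease Oma1), 0 were called with limma in any comparison. At an unadjusted p under 0.05, 2 were higher and 7 lower in APAP against NC, 3 and 0 in AMSC against APAP, and 2 and 2 in AMSC against NC, and voom called 1, 0 and 0. Of the eIF2B genes, Eif2b1 (−0.50, adjusted p = 0.0132), Eif2b3 (−0.47, adjusted p = 0.0226) and Eif2b4 (−0.54, adjusted p = 0.0244) were lower in APAP against NC, short of the minimum fold change. Eif2b2 (−0.07, adjusted p = 0.699) and Eif2b5 (−0.32, adjusted p = 0.0664) did not pass. In AMSC against NC Eif2b1, Eif2b3 and Eif2b4 gave −0.11, 0.05 and −0.02. Eif2ak3, the gene of the ER stress kinase PERK, had 3.58, 2.84 and 2.64 FPKM in NC, 6.94, 6.39 and 5.80 FPKM in APAP and 4.98, 7.10 and 5.73 FPKM in AMSC libraries, so NC was apart from both dosed groups. Its log2 fold change was 0.88 in APAP against NC (adjusted p = 0.00337), 0.78 in AMSC against NC (adjusted p = 0.00667) and −0.10 in AMSC against APAP (adjusted p = 0.766). The other kinase genes had smaller values in APAP against NC, of 0.35 for Eif2ak4 (GCN2, adjusted p = 0.10), −0.09 for Eif2ak1 (HRI, adjusted p = 0.657) and −0.39 for Eif2ak2 (PKR, adjusted p = 0.110). In AMSC against NC they gave 0.25, 0.04 and −0.56 in the same order, the last with an adjusted p of 0.0285, and in AMSC against APAP −0.10, 0.13 and −0.17. Phosphorylation, by which these kinases act, was not measured by RNA. The median of the 14 was −0.28, 0.14 and 0.01 in APAP against NC, AMSC against APAP and AMSC against NC.

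Transcription factors that pair with ATF4 or CHOP formed a list of 12, of which 11 were tested. In APAP against NC 4 were called higher and 0 lower: Atf3 (7.45, adjusted p = 1.41e-05), Cebpd (1.77, adjusted p = 0.00127), Cebpb (1.63, adjusted p = 0.0210) and Jdp2 (1.35, adjusted p = 0.00340), beside 5.09% of all genes tested that were called higher. Of these Atf3 and Jdp2, with an NC mean under 1 FPKM, passed the filter on low values only through the dosed groups. In AMSC against NC Atf3 (7.32), Cebpd (2.43) and Cebpb (2.17) were called higher, beside 3.92% of all genes tested, and 0 lower. For these counts of 0 with limma, 1 gene in each was lower at an unadjusted p under 0.05 and 0 with voom. AMSC against APAP gave 0 calls with limma, with 2 higher and 2 lower at an unadjusted p under 0.05 and 1 lower with voom. Jdp2 passed the test there but fell short of the minimum fold change (−0.89, adjusted p = 0.0421). Atf3 went from 0.362, 0.698 and 0.432 FPKM in NC to 173, 391 and 256 FPKM in APAP and 256, 231 and 224 FPKM in AMSC libraries, so the dosed groups overlapped and both stood far above NC. With voom its values against NC were 9.04 and 8.91, and Jdp2 in APAP against NC was 2.36 with 0.1 FPKM added and 2.59 with voom. The call of Cebpb in APAP against NC was lost without any 1 of 5 libraries, at log2 fold changes of 1.61, 1.69 and 1.60 without NC replicates 1, 2 and 3 and of 1.35 and 1.39 without APAP replicates 2 and 3, and also among all genes above 0. Its adjusted p ran from 8.39e-05 to 0.120 under the alternatives. Medians of the list were 0.30, −0.06 and 0.10 in APAP against NC, AMSC against APAP and AMSC against NC.

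Other known targets of ATF4 or CHOP, 33 tested of 45 listed, were called higher for 10 genes in APAP against NC, 1 in AMSC against APAP and 14 in AMSC against NC, beside 5.09%, 0.742% and 3.92% of all genes tested, and lower for 0 in each. With an NC mean under 1 FPKM, 4 of the 33 passed the filter on low values only through the dosed groups. For the counts of 0 lower, 2, 2 and 0 genes were lower at an unadjusted p under 0.05 and 0 with voom. Their medians were 0.46, 0.32 and 0.91. The hormone genes Gdf15 and Fgf21 had log2 fold changes of 7.10 and 3.87 in APAP against NC and of 5.64 and 4.18 in AMSC against NC, those of Fgf21 being 6.22 and 6.55 with voom. Gdf15 held 303, 545 and 446 FPKM in the APAP libraries and 212, 72.0 and 224 FPKM in the AMSC libraries, which did not overlap (−1.47, adjusted p = 0.115). The amino acid transporter gene Slc38a2 rose by 2.52 in APAP against NC and 2.30 in AMSC against NC, and Sqstm1, an autophagy receptor gene, by 2.39 in APAP against NC and 2.68 in AMSC against NC.

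Mthfd2, a mitochondrial enzyme gene of folate metabolism, had its groups in the same order as Chac1. It had 0.309, 0.199 and 0.433 FPKM in NC, 1.28, 2.73 and 2.67 FPKM in APAP and 6.84, 4.46 and 6.35 FPKM in AMSC libraries. The 3 groups did not overlap. Mthfd2 rose by 1.26 in APAP against NC (an understatement at this NC level, as the ratio of group means was 7.095), by 2.38 in AMSC against NC (3.87 with 0.1 FPKM added, 4.25 with voom) and by 1.11 in AMSC against APAP (adjusted p = 0.0434). The last call was lost with any of the 6 libraries left out, at 0.88, 1.23 and 1.22 without APAP replicates 1, 2 and 3 and 1.01, 1.27 and 1.05 without AMSC replicates 2, 3 and 4, and also with 0.1 FPKM added (1.41, adjusted p = 0.0517) and among all genes above 0 (1.11, adjusted p = 0.192). Its adjusted p ran from 0.0143 to 0.192 under the alternatives. The 12 tRNA synthetase genes of the same list, grouped after their values had been seen, had medians of 0.08 in APAP against NC, 0.47 in AMSC against APAP and 0.55 in AMSC against NC, and 3, 3 and 9 of them were higher with an adjusted p up to 0.05, beside 12.8%, 1.64% and 14.1% of all genes tested, while 1 (Aars, −0.47, adjusted p = 0.0475) was lower in APAP against NC.

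A list of ER folding and stress genes (21 tested, of which 13 are chaperones and folding enzymes, 5 are genes of ER-associated degradation and 3 are stress sensors or their transcription factors) had 5 called lower in APAP against NC and 6 in AMSC against NC, beside 2.80% and 2.09% of all genes tested, and 0 higher. For the 0 higher, 0 were also found at an unadjusted p under 0.05 and with voom. Sdf2l1 fell by 2.23 in APAP against NC and by 2.71 in AMSC against NC, Creld2 by 1.76 and 1.80 and Manf by 1.27 and 1.73. Sdf2l1 had 61.6, 68.2 and 28 FPKM in NC, 9.69, 8.23 and 11.2 FPKM in APAP and 4.03, 13.7 and 5.04 FPKM in AMSC libraries. For all 3 genes NC replicate 3 was the lowest of its group and AMSC replicate 3 the highest of its group, and without NC replicate 3 the values were −2.63 and −3.11 for Sdf2l1, −2.12 and −2.15 for Creld2 and −1.47 and −1.94 for Manf. When all genes above 0 were tested, and p-values adjusted over more genes, Creld2 lost its call in both comparisons, Manf in the first and Sdf2l1 in the second. With limma and voom 0 of 21 were called in AMSC against APAP, with 0 higher and 6 lower at an unadjusted p under 0.05. By sign, 19 of the 21 were lower and 2 higher in each comparison with NC. The chaperone gene Hspa5 was 1 of the 2 higher in APAP against NC (0.25, adjusted p = 0.518). In AMSC against NC it gave −0.38 (adjusted p = 0.188). The medians were −0.54, −0.28 and −0.85 in APAP against NC, AMSC against APAP and AMSC against NC, so this list and the 10 ISR genes had medians of opposite sign in both comparisons with NC.

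Of 12 mitochondrial chaperone and protease genes, Clpx, a subunit of a matrix protease, was called higher by 1.46 in APAP against NC and 1.34 in AMSC against NC, being 1 of 12 beside 5.09% and 3.92% of all genes tested. The comparison of AMSC with APAP had 0 calls, with 0 at an unadjusted p under 0.05 and 0 with voom. The medians were −0.07, 0.14 and 0.04 in APAP against NC, AMSC against APAP and AMSC against NC.

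**Figure D3:**
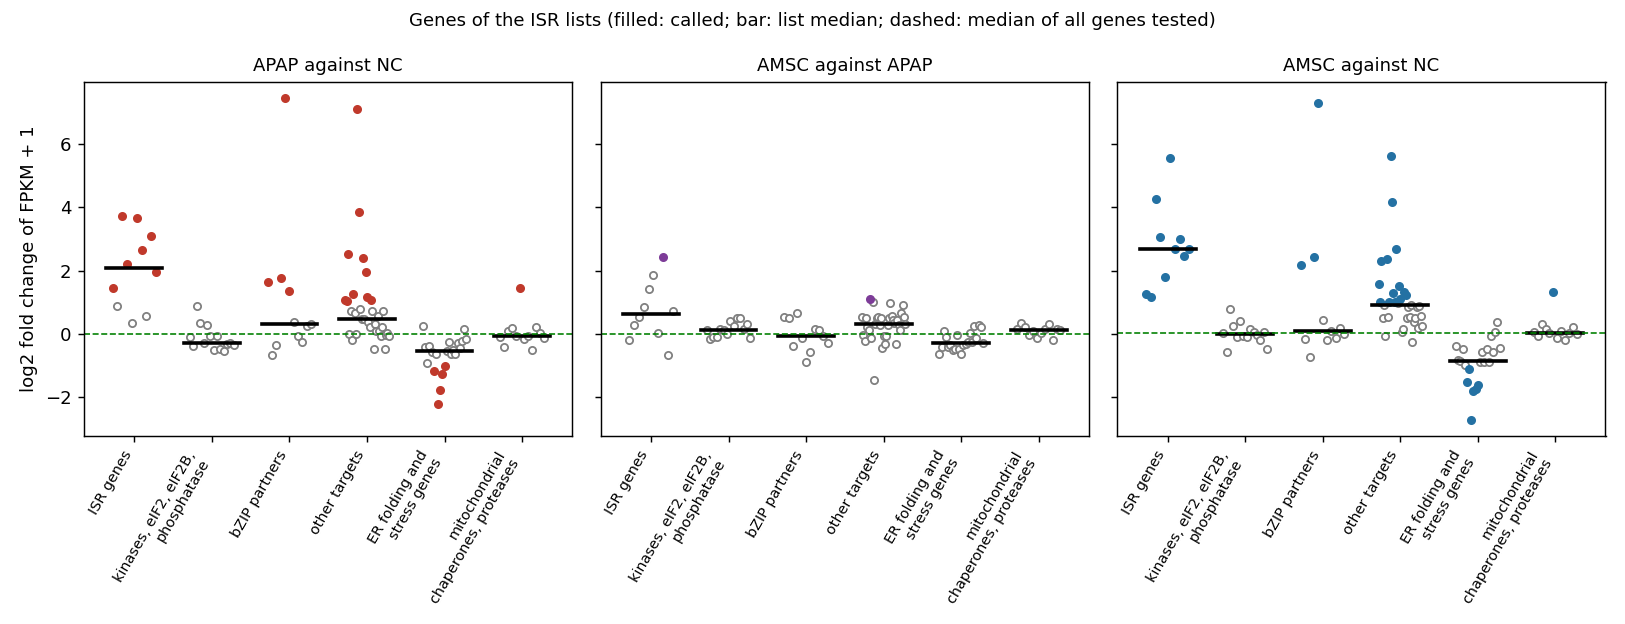
Log2 fold change of FPKM + 1 of each tested gene of 6 lists (the 10 ISR genes, the genes that control the pathway, transcription factor partners, other targets, ER folding and stress genes, mitochondrial chaperones and proteases) in the 3 comparisons; filled points were called, black bars mark list medians and the dashed line the median of all genes tested. The medians of the 10 ISR genes are 2.09, 0.64 and 2.69, and those of the ER folding and stress genes −0.54, −0.28 and −0.85.

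Amino acid shortage and fasting can also engage ATF4 targets, and whether the words on fasting of all animals include the NC mice is not stated, so fasting and APAP cannot be told apart in the comparisons with NC. Of 12 fasting genes 6 were called higher in APAP against NC (median 0.97) and 5 in AMSC against NC (median 0.97), beside 5.09% and 3.92% of all genes tested, and 2 of the 12 (Pdk4 and Ppargc1a) had an NC mean under 1 FPKM and passed the filter only through the dosed groups. Pdk4 had values of 4.96 and 3.11 and Angptl4 of 3.41 and 2.77 against NC, in APAP and AMSC. With 0.1 FPKM added those of Pdk4 were 6.62 and 4.68, and with voom 7.0 and 5.05. Between AMSC and APAP mice, which were both fasted, G6pc fell by 1.86 and Pdk4 by 1.85, beside 1.22% of all genes tested that were called lower. The other 10 were not called and the median was 0.23. Pdk4 lost that call without AMSC replicate 2 (−1.59) and without AMSC replicate 3 (−1.90), and so did both genes among all genes above 0. Sds in APAP against NC (1.46) lost its call without NC replicates 1, 2 or 3 (1.53, 1.39 and 1.47) and without APAP replicates 2 or 3 (1.09 and 1.34). The call of Sds was also lost among all genes above 0 (1.46, adjusted p = 0.150). The part of the fasting genes in the result was not tested.

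Markers of cell types also differed between the groups. Summed over 6 genes, pericentral hepatocyte markers, led by Cyp2e1, were at 5429, 4410.2 and 4896 FPKM in NC, 2254, 503 and 1146 FPKM in APAP and 4493, 4249 and 4340.4 FPKM in AMSC libraries. The APAP libraries were the lowest, and APAP replicate 1, which was also the lowest of its group in 9 of the 10 ISR genes, had kept the most of these markers. Of 5 pericentral genes tested, 4 (Glul, Cyp2e1, Oat and Slc1a2) were called lower in APAP against NC and higher in AMSC against APAP, and 2 (Cyp1a2 and Slc1a2) lower in AMSC against NC, beside 2.80%, 0.742% and 2.09% of all genes tested. Slc1a2, with an APAP mean under 1 FPKM, passed the filter on low values only through the other groups. The 6 periportal markers, led by Pck1, summed to 1635, 1245 and 1402 FPKM in NC, 2530, 3026 and 2663 FPKM in APAP and 2164, 2221 and 1997 FPKM in AMSC libraries, and 2 (Sds and Pck1) were called higher in APAP against NC and 1 (Sds) in AMSC against NC, beside 5.09% and 3.92% of all genes tested; both are also in the list of fasting genes. The 8 general hepatocyte markers, led by Alb, had means of 42027, 63748 and 52639 FPKM in NC, APAP and AMSC. The part of these cells in the results on the ISR genes was not tested.

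Blood, immune and stromal markers had their highest group means in APAP liver. The 6 erythroid markers, led by Hbb-bs, summed to 138, 135 and 254 FPKM in NC, 1073, 306 and 1406 FPKM in APAP and 312, 183 and 234 FPKM in AMSC libraries, with 4 of 5 tested called higher in APAP against NC, where 5.09% of all genes tested were. The 8 neutrophil markers, led by S100a9, summed to at most 1.92 FPKM in NC, 34.8, 7.52 and 16.4 FPKM in APAP and 4.51 to 6.01 FPKM in AMSC libraries, while Ly6g, Mpo and Ngp were at 0 in most libraries and under 0.3 FPKM in the rest. All 3 tested were called higher in APAP against NC and 2 in AMSC against NC, beside 5.09% and 3.92% of all genes tested. These 3 had an NC mean under 1 FPKM and passed the filter on low values only through the dosed groups. The 8 Kupffer cell and macrophage markers, led by Cd5l, summed to 59.5, 54.8 and 110 FPKM in NC, 166, 81.9 and 201 FPKM in APAP and 73.6, 49.8 and 45.5 FPKM in AMSC libraries, with 2 of 8 called higher in APAP against NC and 1 lower in AMSC against APAP, where 1.22% of all genes tested were lower. In each of these lists APAP replicate 2 was the lowest of its group, while for the ISR genes it was the lowest only in Atf5. The 14 stellate, fibroblast and mesenchymal stromal markers, led by Dcn, which would also mark injected AMSCs, had means of 44.9, 69.7 and 48.3 FPKM, and Thy1 was at 0 in AMSC replicate 3. Endothelial markers (8 genes, led by Clec4g) had means of 35.5, 52.0 and 25.5 FPKM, cholangiocyte markers (6 genes, led by Spp1) 25.7, 80.5 and 35.4 FPKM and lymphocyte markers (8 genes, led by Cd79a, with 0 tested) 1.27, 1.79 and 1.53 FPKM in NC, APAP and AMSC. Of 4 cholangiocyte markers tested, 2 (Sox9 and Spp1) were called higher in APAP against NC, beside 5.09% of all genes tested. Sox9 was called lower in AMSC against APAP (−2.76, adjusted p = 0.00115), beside 1.22% of all genes tested. The part of all these markers in the results on the ISR genes was not tested.

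**Figure D4:**
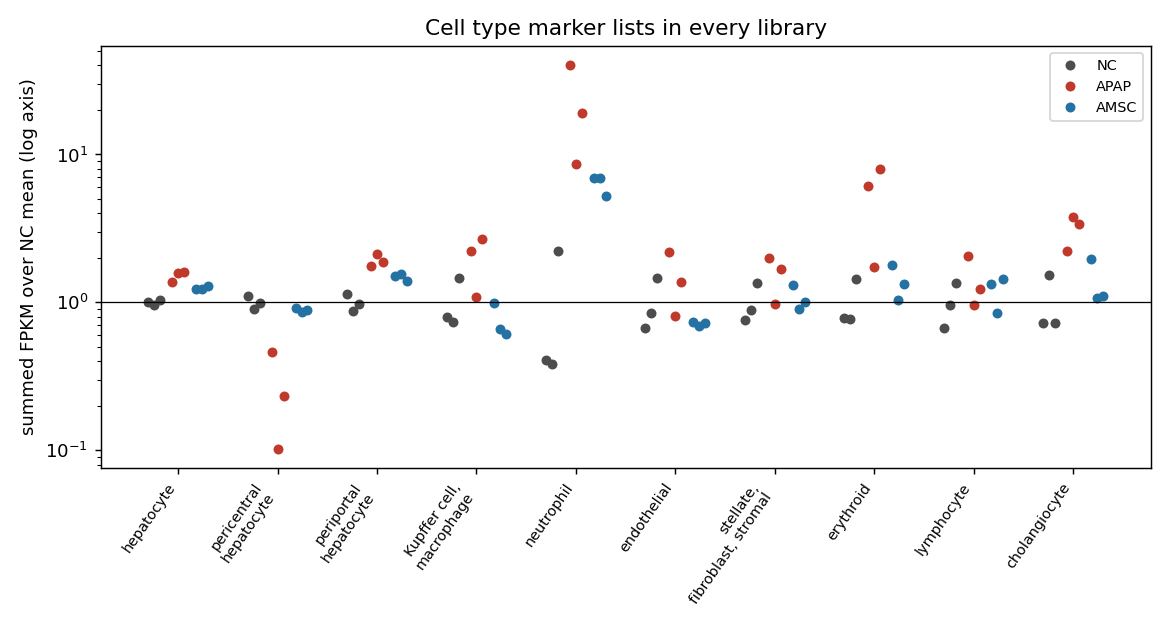
Summed FPKM of each cell type marker list in every library, divided by the NC mean of that list, on a log axis; each point is a library and the line at 1 is the NC mean. The pericentral list is the lowest in APAP libraries (means of 4912, 1301 and 4361 FPKM in NC, APAP and AMSC), and the neutrophil and erythroid lists are the highest there.

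By position, the 10 genes lie on 7 chromosomes. Atf5 and Ppp1r15a on chromosome 7 are 706257 bases apart, Trib3 and Chac1 on chromosome 2 are 32983040 bases apart and Ddit3 and Ddit4 on chromosome 10 are 67338939 bases apart. Besides Mars, genes that overlap with 1 of the 10 were Nup62 (mean of 4.43 FPKM) and Il4i1 (0.0143 FPKM) at Atf5, and Gm4189 (0.486 FPKM) at Ddit3. Others were Tulp2 (0.0841 FPKM) at Ppp1r15a, Gm12981 (0.0946 FPKM) at Sesn2 and Gm3329, listed at 0, at Psat1. The second Ddit3 entry, at 0 in all libraries, overlaps with the counted Ddit3 gene by 2925 bases on the same strand.

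The promoters of the 10 genes are shown because all 10 were called higher in AMSC against NC, and because ATF4 with a C/EBP partner is known to bind a composite element. RefSeq promoters on GRCm38.p6, from 250 bases before to 50 after the start, were searched on both strands for TGATGNAA (core of that C/EBP-ATF response element), TGACGTCA (cyclic AMP response element), TGANTCA (AP-1 site) and TGACGTGG (unfolded protein response element). By gene name all 10 genes had a promoter to search, 12 promoters in all, with 2 each for Atf5 and Psat1. TGATGNAA was in 3 of the 12 (25%) and in 3.97% of all 32851 promoters, TGACGTCA in 1 of 12 and 1.79%, TGANTCA in 1 of 12 and 7.81%, and TGACGTGG in 0 of 12 and 0.676%. The stretches with a match are given on the gene's strand, with the match in capitals and positions counted from the start. Trib3 (chr2:152344028-152344057, minus strand) and Chac1 (chr2:119351038-119351067, plus strand) hold TGATGNAA read on the opposite strand, from base 15 after the start and from base −193, and Asns (chr6:7693214-7693243, minus strand) holds it on its own strand from base −23. Ppp1r15a (chr7:45526262-45526291, minus strand) holds TGACGTCA from base −12, and Ddit3 (chr10:127290543-127290571, plus strand) TGANTCA from base −242. A match is a description of the letters, not a binding site, and no match says only that these letters are not in this window. Both Psat1 windows (chr19:15925010-15925309 and chr19:15924573-15924872, minus strand) lie inside the deposited Psat1 gene, whose own start is upstream at 15947337.
Trib3: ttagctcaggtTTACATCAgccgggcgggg
Chac1: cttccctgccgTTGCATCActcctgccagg
Asns: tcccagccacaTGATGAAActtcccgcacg
Ppp1r15a: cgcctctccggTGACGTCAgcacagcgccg
Ddit3: cgcgcgcaTGACTCActcacctcctccgc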

How the data were processed

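For the 9 liver libraries the deposited table holds FPKM per gene as computed by the authors, along with gene lengths and coordinates. The aligner, the counting program and the strand setting are not given in the sources used here, and the submitters' processing notes name the build GRCm38 (mm10). The paper's methods name DESeq2 1.20.0 for the authors' own comparisons, which were not used here. Groups were taken from the sample labels. Of 54495 gene identifiers shared with GENCODE vM21, 53585 (98.33%) had the same start and end, the 10 genes among them.

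A pseudocount of 1 was added to the deposited FPKM before taking log2, so fold changes are on the log2(FPKM + 1) scale, which understates those of low genes. The 9699 genes that averaged 1 FPKM or more entered limma 3.58.1 (R 4.3.3; lmFit, then eBayes with a trend), 1 fit for each pair of groups, and p-values were adjusted over all of them after Benjamini and Hochberg. Calls needed an adjusted p up to 0.05 together with a log2 fold change of 1 or more in size. The labels do not say more of the replicates than their numbers, so p-values measure only the spread between these samples. The test was checked on simulated data. FPKM times gene length came out as whole multiples of a step per library (within 0.1), and the reads recovered in this way served for depth and for voom. Figures were drawn with matplotlib 3.10.9 and tables made with pandas 2.3.3 and numpy 2.4.6 (Python 3.11.15).

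The 10 genes were all named. From each other list (partner transcription factors, other targets, ER folding and stress genes, mitochondrial chaperones and proteases, fasting genes, p53 targets) up to 4 called genes with the largest log2 fold change in size and groups that did not overlap could be named per comparison, with all 4 eIF2 kinases, the 5 genes most like the mean of the 10, and the most abundant gene of each marker list. Other genes named were chosen after their values were seen. The members and lists were chosen with earlier results of these data known.

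The alternatives tried were voom, quantile normalization, a pseudocount of 0.1, no filter on low values (all genes above 0), a filter at 5 FPKM, 1 fit of all 9 libraries, the replicate number as a block, calls without a minimum fold change, and each replicate left out in turn. To check the pairing, each library's deviation from its group mean was correlated with that of the library of the same number. This gave 0.213, 0.160 and 0.378 for replicates 1, 2 and 3 of APAP and NC. Libraries of different numbers were not correlated in this way, so these values do not settle whether the numbers pair the samples. The labels state no pairing, and apart from the replicate block the fits used none. The number of NC replicate 3 is in its description and not in its title. The replicate block changed no call of the 10 genes in APAP against NC (7 called with and without it).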

Additional observations from a re-analysis of the deposited data

How the results depend on the processing

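Of the log2 fold changes of the 10 ISR genes under the alternatives, 127 of 128 kept their direction and their side of the threshold in APAP against NC, 114 of 128 in AMSC against APAP and 128 of 128 in AMSC against NC. The other named genes did so in 257 of 272, 44 of 63 and 255 of 259, the rest losing their call. The count of called ISR genes in APAP against NC was 6 to 8, being 6 with a mean of at least 5 FPKM, where Asns (3.09 FPKM) and Psat1 (3.01 FPKM) were not tested, and in AMSC against NC it was 8 there and 10 otherwise.

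In AMSC against APAP the count of ISR genes, 1 as reported, was 3 with all 9 libraries in a single fit, 3 with the replicate block (Ppp1r15a among them, lower), 2 with voom and 1 to 2 with a replicate left out. The count of other targets, 1 as reported, was 2 with a pseudocount of 0.1, 0 with all genes above 0, 0 with a mean of at least 5 FPKM, 2 with quantile normalization, 3 with voom, 5 with no minimum fold change and 0 to 2 with a replicate left out. For AMSC against NC it was 14 as reported and 25 with no minimum fold change. The cause was not tested, except that fewer genes were tested with a minimum of 5 FPKM, where Mthfd2 was left out.

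Signs turned only for values that were not called. In AMSC against APAP the replicate block gave −0.06 for Ddit3 and −0.20 for Sesn2, and leaving out a replicate gave −0.44 to 0.05 for Atf4, −0.03 to 1.0 for Ddit3 and −0.08 to 0.23 for Sesn2. Asns in APAP against NC ran from −0.02 to 0.83 when a replicate was left out. Same-numbered libraries of AMSC and APAP (−0.104 and −0.293) and of AMSC and NC (−0.199 and −0.309) did not deviate together, so they share only a number. In AMSC against APAP the block rests on the 2 numbers found in both groups, and it gave 1.17 for Chac1 (adjusted p = 0.0111), −1.01 for Ppp1r15a (adjusted p = 0.0414, in a range of 0.0414 to 0.459 over the alternatives) and 0.82 for Mthfd2 (adjusted p = 0.0928). The block moved the calls over all genes from 190 to 335 in AMSC against APAP, from 583 to 611 in AMSC against NC and from 766 to 781 in APAP against NC, and it changed no other call of the 10 genes than those of Chac1 and Ppp1r15a. In AMSC against APAP, leaving out 1 replicate gave 90 to 229 calls over all genes, and testing all genes above 0 gave 21. Depth limits Psat1 and Chac1 in NC liver, where they rest on 1 to 3 and 7 to 12 reads.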

Other observations

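Targets of p53, a list of 14 genes of which 10 were tested, were called higher for 7 genes in APAP against NC and 6 in AMSC against NC, with medians of 2.30 and 1.56, beside 5.09% and 3.92% of all genes tested that were called higher. Ccng1 was lower with an adjusted p up to 0.05 in both (−0.50, adjusted p = 0.0475, and −0.51, adjusted p = 0.0160), and 1 of the 10, Cdkn1a, had an NC mean under 1 FPKM and passed the filter on low values only through the dosed groups. AMSC against APAP had 2 called lower, beside 1.22% of all genes tested, and a median of −0.29. The cell cycle inhibitor gene Cdkn1a had 0.186, 0.488 and 0.229 FPKM in NC, 44.7, 83.3 and 60.9 FPKM in APAP and 67.2, 45.5 and 82.1 FPKM in AMSC libraries, so the dosed groups overlapped far above NC. Its log2 fold changes against NC were 5.58 in APAP (adjusted p = 1.41e-05) and 5.63 in AMSC (adjusted p = 2.29e-06), or 7.33 with a pseudocount of 0.1 and 7.74 with voom for the first. Btg2 (6.04 and 5.07), Plk3 (4.74 and 4.06) and Trp53inp1 (3.71 and 3.57) were called higher in the same comparisons. In AMSC against APAP the kinase gene Plk2 fell by 1.15 (adjusted p = 0.00408) and Mdm2, the gene of the p53 ubiquitin ligase, by 1.04 (adjusted p = 0.0420). Mdm2 lost that call without APAP replicates 2 or 3 (−0.80 and −1.08) and AMSC replicates 2, 3 or 4 (−1.09, −1.02 and −1.0), and among all genes above 0 (−1.04), with adjusted p values from 0.0102 to 0.179 over the alternatives. Sesn2, counted here among the ISR genes, and Bbc3, also in the list of other ISR targets, are known targets of both pathways.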
